A study of Mus musculus with 14 samples.

Results

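Imprinted genes are expressed mainly from the copy inherited from 1 parent, and the hypothalamus is among the tissues where many of them are active. The members described here are Ndn, Magel2, Snrpn, Snurf, Peg3, Meg3, Dlk1, Nnat, Asb4 and Peg10, taken by name. Of these 10 genes, 9 had a row among the 21568 gene symbols of the count tables. Snurf was not analysed here. The genes were followed in cells of the lateral hypothalamic area of 14 male wildtype C57BL/6J mice, of which 7 ate a high fat diet and 7 a taste-matched control chow, both ad libitum. The punched tissue was made into single cell suspensions and profiled by Drop-seq, a droplet method that tags each RNA molecule near its 3′ end with a cell barcode and a unique molecular identifier (UMI). Libraries were sequenced in 2 pools, and both diets were in both pools. No age was given in the sources used here.

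In mammals an imprinted gene carries a methylation mark set in the egg or the sperm, so that only the maternal or the paternal copy is transcribed. Neighbouring imprinted genes often share 1 control region and form a cluster. Deletion of the human counterpart of the Ndn, Magel2 and Snrpn region from the paternal chromosome causes Prader-Willi syndrome, which includes overeating and is attributed to the hypothalamus.

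In the GRCm38 build with the GENCODE M21 annotation, the members lie on 4 chromosomes. On chromosome 7, Peg3, a paternally expressed zinc finger gene, spans 6703892 to 6730431 on the minus strand. Snrpn, which encodes a protein of the spliceosome, spans 59982495 to 60140219 on the minus strand of that chromosome, and the interval of Snurf, 59995449 to 60005049, lies inside it on the same strand. Ndn and Magel2, both members of the MAGE protein family, lie at 62346569 to 62350262 and 62377010 to 62381640. On chromosome 12, Dlk1, a membrane protein related to Notch ligands, lies at 109452823 to 109463336, and Meg3, a maternally expressed long noncoding RNA, at 109541001 to 109571726. On chromosome 2, Nnat, which encodes a small membrane protein of neurons, lies at 157560078 to 157562522 inside the interval of Blcap, which is on the opposite strand. On chromosome 6, Peg10, a gene derived from a retrotransposon, lies at 4747306 to 4760517, and Asb4, an ankyrin repeat protein with a SOCS box, at 5383386 to 5433022. Ppp1r9a, which encodes an actin binding protein of synapses, lies between the last pair at 4902917 to 5165661, on the same strand.

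The sequences just before the starts of Asb4 and Ppp1r9a are shown because these genes, with Peg10, moved together over types of neurons. The start that RefSeq lists for both Snurf and Snrpn is shown because the 2 genes share it. All are from RefSeq on GRCm38.p6, written in the direction of transcription, with each CG dinucleotide in capitals. The windows are chr6:5383136-5383385 for Asb4, chr6:4902725-4902916 for Ppp1r9a and chr7:60005200-60005449, minus strand, for the shared start.
Asb4: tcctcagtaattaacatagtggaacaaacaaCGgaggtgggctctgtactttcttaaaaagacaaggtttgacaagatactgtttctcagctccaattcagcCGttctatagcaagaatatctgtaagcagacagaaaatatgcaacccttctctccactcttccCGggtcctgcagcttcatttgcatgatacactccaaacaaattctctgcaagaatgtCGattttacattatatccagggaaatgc
Ppp1r9a: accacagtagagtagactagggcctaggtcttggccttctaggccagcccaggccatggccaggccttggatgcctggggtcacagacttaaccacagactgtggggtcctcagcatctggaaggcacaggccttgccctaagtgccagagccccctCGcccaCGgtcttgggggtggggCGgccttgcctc
Snurf and Snrpn: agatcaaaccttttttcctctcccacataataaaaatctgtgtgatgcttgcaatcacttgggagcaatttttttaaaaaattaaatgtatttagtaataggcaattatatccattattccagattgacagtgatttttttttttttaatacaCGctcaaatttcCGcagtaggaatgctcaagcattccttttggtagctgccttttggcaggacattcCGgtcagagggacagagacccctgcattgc
Over the 250 bases before a start, the motif CG, which reads the same on both strands, was found 4 times for Asb4, and 62.2% of 32851 promoter windows of that length held at least as many. For Ppp1r9a it was found 8 times over the full 250 bases, a count reached by 43% of windows, and 3 of these are in the printed stretch, which ends where the annotated gene begins. The shared start held 3, and 71% of windows held at least as many. RefSeq also lists a further start of Asb4, whose window, chr6:5390160-5390409, held 8. Further starts of Snrpn held 2, 3 and 4. Peg10 is named only.

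The tables held 28410 barcodes. Of these, 15378 passed 3 filters, a minimum of 500 UMIs, a minimum of 300 genes, and no more than 20% mitochondrial UMIs. Of those, 222 were removed as doublets. The 15156 kept cells came to between 49 and 1756 per mouse, with a median of 1338 UMIs, and libraries totalled 147470 to 5611524 UMIs. Only 3 kept barcodes occurred in more than 1 library. Cells were clustered without the members and without 40 other imprinted genes, so that these genes did not shape the classes, and clusters were named from marker genes. There were 6192 neurons, of which 3106 were GABAergic-like, 1956 glutamatergic-like, 138 hypocretin-like and 54 MCH-like, 6169 oligodendrocyte-like cells, 911 astrocyte-like cells, 639 oligodendrocyte precursor-like cells (OPCs), 447 microglia-like cells, 595 endothelial-like cells and 112 mural-like cells. The endothelial-like class also carried 6 mural markers. Together, 3 mice (control replicates 1 and 2, and replicate 1 of the high fat diet) gave 317 of the 341 cells of 1 GABAergic subcluster, number 8. Levels below are in CPM, the UMIs of a gene scaled to a common total of UMIs for the class in 1 mouse, for mice with at least 10 cells of the class.

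All 9 measured members were detected in neurons, and all 9 were higher there than in oligodendrocytes. Meg3 was between 4996 and 7398 CPM in the neurons of the 14 mice, against 243.5 ± 145 CPM (SD, n = 14 mice) in oligodendrocytes. Peg3 averaged 1581 ± 228 CPM in neurons and 112 ± 34.4 CPM in oligodendrocytes. Ndn averaged 1104 ± 359 and 62.2 ± 43.5 CPM, and Snrpn 885 ± 103 and 166.5 ± 34.9 CPM. For these 4 genes no mouse had a neuron level below its own oligodendrocyte level. Levels of different genes are not compared with each other, since UMI counts were not set per length.

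Dlk1 averaged 409 ± 121 CPM in neurons and 24.1 ± 32.7 CPM in oligodendrocytes. Asb4 averaged 66 ± 30.4 CPM in neurons and 1.78 ± 1.28 CPM in oligodendrocytes, and it was higher in neurons in 13 of 14 mice. Control replicate 7, with 50 neurons, was the exception, with Asb4 at 0 UMIs in its neurons. Magel2 rested on the fewest molecules, 418 UMIs over all neurons and 4 over all oligodendrocytes, with means of 17.2 ± 6 and 0.342 ± 0.689 CPM.

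Every one of the 9 members passed the test against oligodendrocytes (edgeR quasi-likelihood, mouse as a block, Benjamini-Hochberg over all genes, adjusted p from 1.78e-57 for Peg3 to 2.85e-09 for Dlk1). The log2 difference was largest for Asb4, at 4.74, and smallest for Snrpn, below the 2.23 of Peg10. In that comparison 85.9% of 8502 genes passed, 49.7% higher and 36.3% lower in neurons, and the median log2 difference was 0.22 over all genes and 3.98 over the members. Of the 40 other imprinted genes, 24 were tested, 15 rose and 7 fell in neurons. Those that differed most were Pon2, a paraoxonase, which was lower in neurons by 6.27 on the log2 scale (2.27 ± 1.65 against 140.2 ± 44.3 CPM), and Grb10, an adaptor of insulin signalling, Usp29 and Zdbf2, which were higher by 4.95, 4.76 and 4.33.

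**Figure D1:**
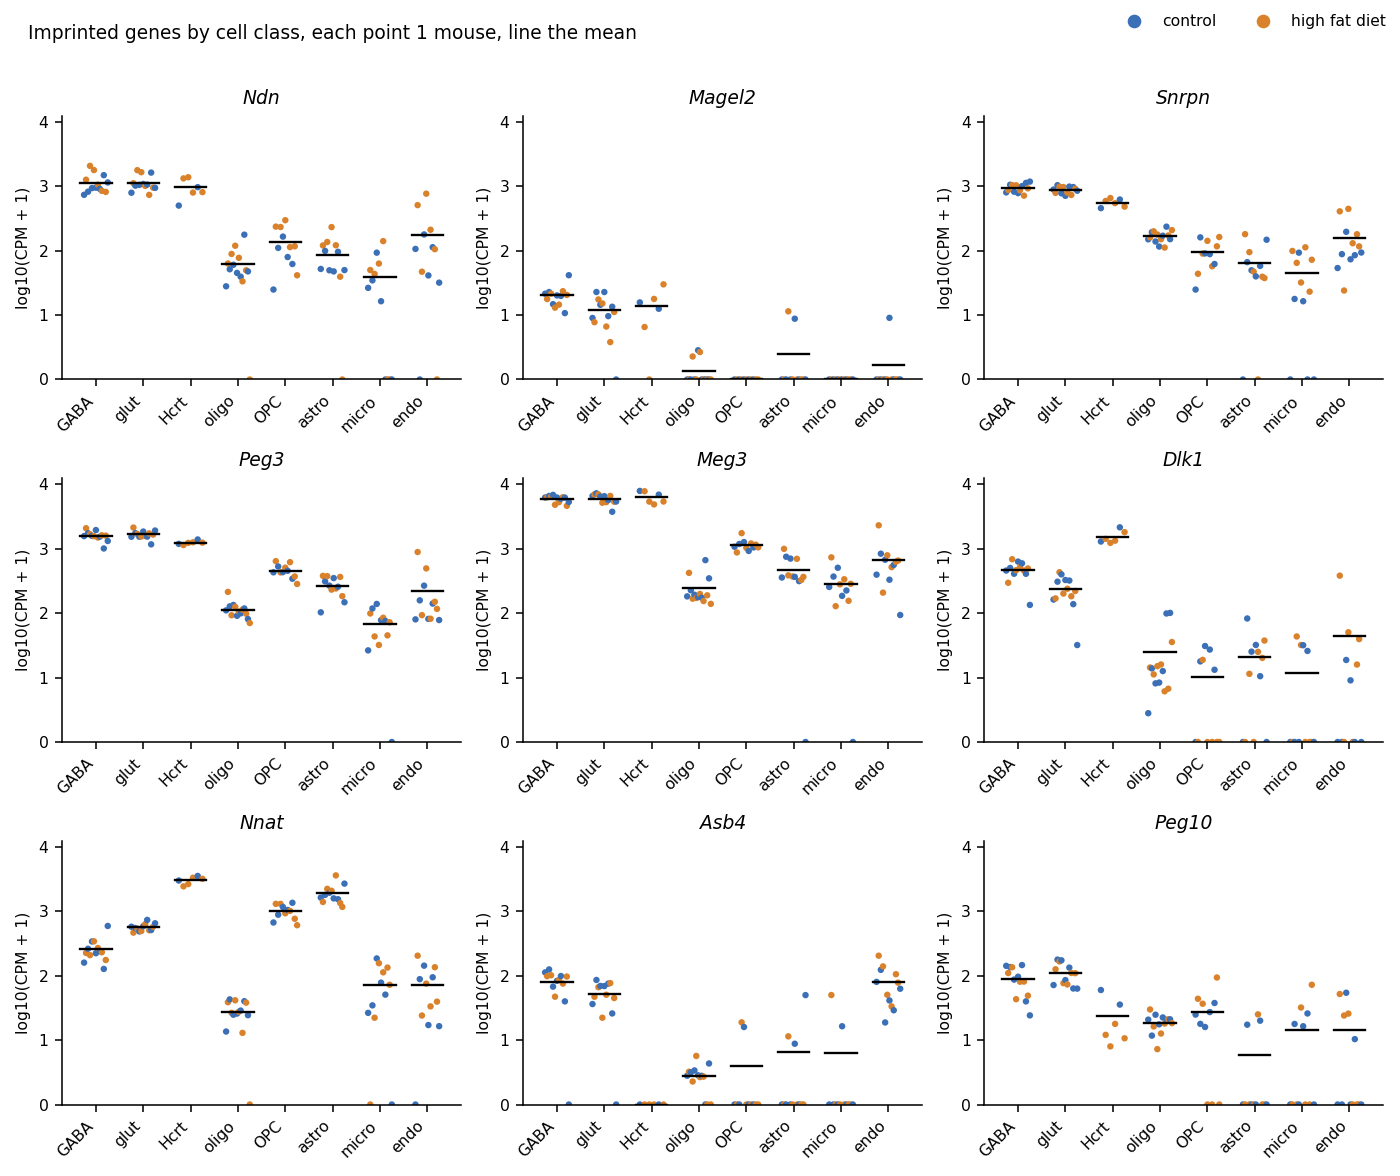
Level of each of the 9 members as log10(CPM + 1) on the y axis, by cell class on the x axis (GABA and glut, GABAergic and glutamatergic neurons; Hcrt, hypocretin neurons; oligo, oligodendrocytes; astro, astrocytes; micro, microglia; endo, endothelial cells). Each point is 1 mouse with at least 10 cells of the class, coloured by diet, and the line is the log10 of the mean CPM + 1. Nnat was higher in astrocytes and OPCs than in GABAergic or glutamatergic neurons, and Asb4 was at 0 in every hypocretin library.

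Nnat did not follow the other members outside neurons. In astrocytes it was between 1173 and 3620 CPM in 12 mice, with a mean of 1923 ± 683 CPM, against 550.5 ± 245 CPM in the neurons of the same mice. The astrocyte value was the higher one in 12 of 12 mice. The log2 difference of neurons over astrocytes was -2.24 ± 0.107 (SE, edgeR adjusted p = 4.06e-96). Fitted differences against astrocytes were shifted by a median of -0.43 from the log2 ratio of CPM values. This shift was -0.3 against oligodendrocytes, 0.15 against OPCs, -0.35 against microglia, -0.23 against endothelial cells and 0.64 against mural cells. The fitted differences between classes are relative to it. In OPCs Nnat averaged 1007 ± 261 CPM against 485 ± 94.9 CPM in neurons, was higher in OPCs in 11 of 11 mice, and differed by -0.93 ± 0.0846 (adjusted p = 2.4e-27). Nnat was higher in neurons than in oligodendrocytes, microglia, endothelial cells and mural cells, by 3.93, 2.57, 2.75 and 3.5 on the log2 scale, and all 4 differences passed. After each cell was thinned to 500 UMIs, a UMI of Nnat was found in 52.4% of astrocytes, 37.9% of OPCs, 17.3% of neurons and 3.36% of microglia. The unthinned median depth was 676 UMIs in astrocytes, 1008 in OPCs, 3433 in neurons and 873 in microglia.

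The other 5 members tested against astrocytes were all higher in neurons, by 2.11 for Peg3 to 3.93 for Dlk1. In that comparison 71.3% of 4550 genes passed, 40.3% higher and 31% lower in neurons, and the median log2 difference of all genes was 0.21. Against OPCs, where 65.8% of 7336 genes passed (35.8% higher and 30% lower), 7 members were higher in neurons and Nnat was lower. The smallest of those 7 differences were 1.99 for Peg3, 2.14 for Peg10 and 2.59 for Meg3. Against microglia 6 of 6 tested members were higher in neurons, by 2.57 to 4.64, where 74% of 3941 genes passed (49.1% higher and 24.9% lower) and the median of all genes was 0.59. Against mural cells, in 5 mice, 8 of 8 were higher, where 44.2% of 6632 genes passed (36.8% higher and 7.34% lower) and the median of all genes was 1.29. In these 5 mice, which had at least 10 mural cells each, Dlk1 had no UMI in mural cells and was at least 11.6-fold higher in neurons, taking 3 counts over the group as the floor, while 2 UMIs of it were counted over all 112 mural cells. Peg10, without a UMI in any mural cell, was at least 2.45-fold higher in neurons. Magel2 had no UMI in OPCs or microglia, and was at least 3.62-fold and 2.31-fold higher in neurons than these. Floors cover counting error only.

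Asb4 was the 1 tested member that did not pass against endothelial cells. It averaged 79.7 ± 54.7 CPM in endothelial cells and 64.6 ± 25.1 CPM in neurons of the same 12 mice, and the neuron level was the higher one in 4 of them. The summed level of the 10 neuron markers ran from 387 to 4692 CPM in the endothelial cells of these mice and from 9333 to 11495 CPM in neurons. The endothelial Asb4 values ran from 17.8 to 204 CPM and rested on 50 UMIs, 1 to 8 per mouse. The log2 difference of neurons over endothelial cells was -0.37 ± 0.304, with a 95% interval of -0.97 to 0.22 (adjusted p = 0.276). The 7 other tested members were higher in neurons by 2.41 for Snrpn to 3.57 for Dlk1, in a comparison in which 69.8% of 4677 genes passed, 38.6% higher and 31.2% lower. In mural cells 1 UMI of Asb4 was counted.

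RNA released from broken cells gives UMIs in every droplet, so the level of each member outside neurons was set beside that of 10 neuron marker genes, each as a percent of its level in neurons. In astrocytes the markers were at 3.92% to 12%, and 3 members were above all of them. These were Nnat at 373%, Magel2 at 27.4%, which rested on 3 UMIs, and Peg3 at 18%. In endothelial cells the markers were at 8.4% to 27.4%, and only Asb4, at 100.4%, was above them. In OPCs the markers reached 71.5% for Elavl3 and 37.9% for Tubb3, and had a median of 6.68%. Only Nnat, at 209%, was above all 10 there, while Peg3 was at 28%, Peg10 at 25.1% and Meg3 at 18.3%. In oligodendrocytes the median of the markers was 2.99%, Elavl3 stood at 268% and Tubb3 at 15.1%. There Snrpn was at 18.2% and Peg10 at 16.9%, above 9 of the 10 markers. In microglia the markers reached 11.1%, and Nnat at 14.5% and Peg10 at 11.2%, from 32 and 5 UMIs, were above them. In mural cells the markers were at 1.65% to 4.51%, and 4 members were above all of them, Asb4 at 13.3%, Nnat at 9.11%, Snrpn at 6.18% and Meg3 at 4.70%, from 1, 5, 6 and 32 UMIs. Dlk1, Meg3, Asb4 and Magel2 were between 2.98% and 3.35% of their neuron level in oligodendrocytes, close to the marker median. The part of released RNA in these levels was not tested.

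**Figure D2:**
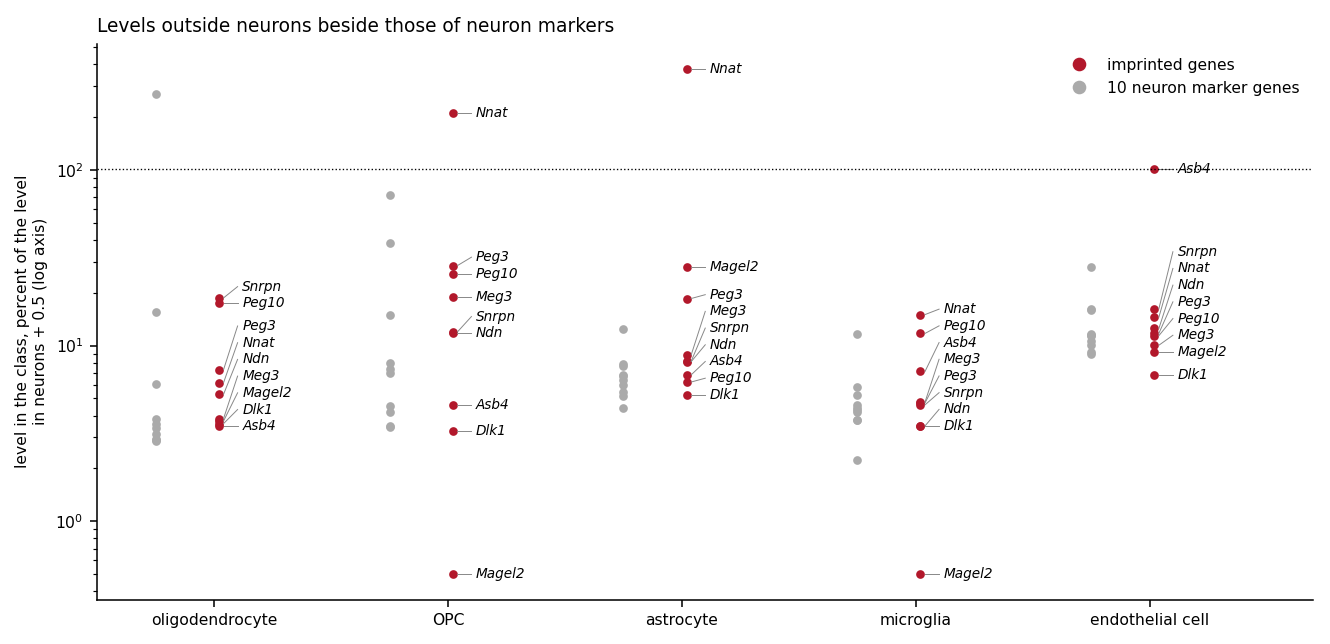
Level of each member (red) and of 10 neuron marker genes (grey) in 5 classes of cells other than neurons, as a percent of the level in neurons with 0.5 added, on a log axis. The dotted line marks the neuron level. Nnat lies above the line in OPCs and astrocytes, and Asb4 lies on it in endothelial cells.

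After thinning to 500 UMIs, a UMI of Meg3 was found in 88% of neurons, 43.3% of OPCs, 16.8% of astrocytes, 11.6% of microglia and 9.05% of oligodendrocytes. Peg3 was found in 52.9% of neurons and 3.13% of microglia, Ndn in 39.7% and 1.34%, and Snrpn in 33.5% and 2.46%. Without thinning, Ndn was found in 74.2% of neurons.

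GABAergic and glutamatergic neurons differed in 4 of 9 members, where 9.82% of 8413 genes passed, 4.84% higher and 4.98% lower in GABAergic neurons. Dlk1 was higher in GABAergic neurons, with 467 ± 143 CPM against 241 ± 113 CPM in glutamatergic neurons, in 13 of 13 mice. Its log2 difference was 0.89 ± 0.111 (edgeR adjusted p = 9.06e-05), and in pool 1 alone it was 0.86 and did not pass (adjusted p = 0.071). Nnat was lower in GABAergic neurons, with 261 ± 117 CPM against 563 ± 76.1 CPM, in 13 of 13 mice, by -1.16 ± 0.129 (adjusted p = 3.19e-05). Asb4 was higher in GABAergic neurons, with 78.7 ± 33.8 CPM against 50.7 ± 25.2 CPM, in 10 of 13 mice, by 0.62 ± 0.1 (adjusted p = 8.24e-06). In control replicate 7 it was at 0 in both classes. Magel2, with 260 and 113 UMIs in all, passed by little, at 0.54 ± 0.181 (adjusted p = 0.042), was higher in GABAergic neurons in 9 of 13 mice, and missed the threshold in 17 of 24 alternatives.

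Ndn, Snrpn, Peg3, Meg3 and Peg10 did not pass. The log2 differences of the first 4 were between -0.02 and 0.08, and that of Peg10 was -0.21 ± 0.152 (adjusted p = 0.515). Of 24 other imprinted genes tested, Plagl1, a zinc finger transcription factor, rose in GABAergic neurons by 1.21 ± 0.197 (18.8 ± 7.13 against 8.18 ± 4.22 CPM), and Blcap, whose interval holds Nnat, fell by 0.19. Without the mouse as a block the members that passed were 2, Dlk1 and Nnat.

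Hypocretin neurons, which make the arousal and feeding peptide orexin, had the highest Nnat and Dlk1 levels of the 23 neuron subclusters with at least 50 cells. Against the other neurons 6 of 9 members passed, 3 in each direction, where 30.2% of 7671 genes passed, 13.4% higher and 16.8% lower. Nnat was between 2446 and 3552 CPM in the 6 mice with at least 10 such cells, and 401 ± 38.8 CPM in the other neurons of the same mice. The 2 ranges did not overlap. The log2 difference was 3.25 ± 0.0726 (edgeR adjusted p below the smallest number the software writes). Dlk1 was between 1238 and 2160 CPM against 407 ± 97 CPM, with a log2 difference of 2.26 ± 0.0787 (adjusted p = 1.12e-158), and it was higher in 6 of 6 mice. Asb4 had 0 UMIs in the hypocretin neurons of these mice against 69.6 CPM over their other neurons, so it was at least 18.3-fold lower at a floor of 3 counts over the group. Peg10 was at 23.1 ± 20.2 against 98.2 ± 35.7 CPM, lower in 6 of 6 mice, by -1.96 ± 0.309 (adjusted p = 3.27e-09). Hcrt itself took 15.3% of the UMIs of these cells against 0.0205% in the other neurons. The fit shifted log2 differences by a median of 0.35 against the ratio of CPM values, and the fitted values are relative to that.

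On the fitted scale Meg3 was higher in hypocretin neurons by 0.45 ± 0.0639 (adjusted p = 5.76e-11), although its CPM was higher in only 4 of 6 mice. Snrpn was lower, with a fitted difference of -0.33 ± 0.0913 (adjusted p = 0.00202), at 560 ± 78.8 against 898 ± 118 CPM. Without the mouse block the Snrpn difference did not pass (adjusted p = 0.0824), nor in pool 1 alone (adjusted p = 0.0776). Ndn, Peg3 and Magel2 did not pass, with fitted differences of 0.05, 0.02 and -0.05. The CPM of Peg3 was lower in hypocretin neurons in 6 of 6 mice, at 1248 ± 84.8 against 1570 ± 69.8 CPM. Over genes of at least 50 CPM in both groups, CPM ratios lay below the fitted differences by a median of 0.35. The share of genes with a lower CPM in every mouse is not given here, so the CPM values do not set Peg3 apart. Of 25 other imprinted genes tested, 10 rose and 3 fell, led by Plagl1 at 3.98 ± 0.232 (169 ± 65.6 against 12.8 ± 2.33 CPM), Rtl1, a retrotransposon-derived gene of the Dlk1 and Meg3 cluster, at 2.99, and Mirg, a noncoding RNA of the same cluster, at 1.49. Ppp1r9a fell by 1.36.

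MCH neurons, the other large peptide population of this area, reached 10 cells in only 1 mouse, so no test was run. Over their 54 cells, with no replicate spread, Nnat was at 751 CPM, Dlk1 at 81.7 CPM and Peg10 at 24.5 CPM, and 1 UMI of Asb4 was counted. Ndn was at 1470 CPM and Meg3 at 4446 CPM.

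Neurons were divided further into 26 subclusters, of which 23 had at least 50 cells and 20 could be tested against the other neurons of the same mice. Over the 23, 4 members varied little and 4 varied widely, and Magel2 lay between. Ndn ranged from 705.4 to 1982 CPM, a factor of 2.81, Snrpn from 416 to 1108 CPM, a factor of 2.67, Peg3 from 1016 to 2071 CPM, a factor of 2.04, and Meg3 from 4095 to 8900 CPM, a factor of 2.17. Dlk1 ranged from 14 to 1432 CPM, a factor of 103, Nnat from 28.9 to 3087 CPM, a factor of 107, and Peg10 from 3.48 to 471 CPM, a factor of 135. Asb4 ranged from 0 to 715 CPM. Magel2 ranged from 4 CPM, from 3 UMIs, to 60.8 CPM, from 18 UMIs, a factor of 15.2. The lowest levels of Peg10, Dlk1 and Nnat rested on 1, 12 and 11 UMIs, so the size of these factors is imprecise. Over the 152311 pairs of a gene and a subcluster, 8.87% passed, 3.61% higher and 5.26% lower. Of 20 tests each, Asb4 passed in 17 (4 higher, 13 lower), Peg10 in 15 (4 and 11), Dlk1 in 13 (5 and 8) and Nnat in 12 (4 and 8). Ndn and Peg3 passed in 7 each, Snrpn in 5 and Meg3 in 4, and Magel2 in 1 of 13.

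**Figure D3:**
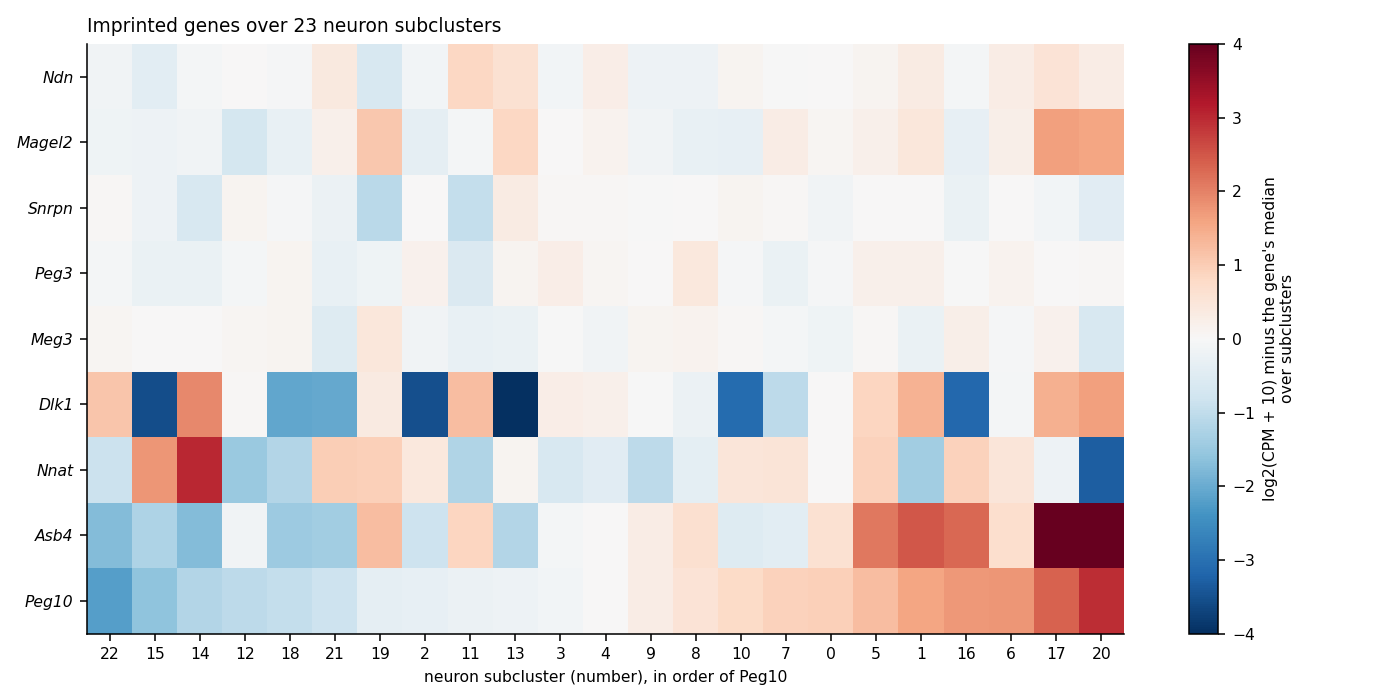
Members (rows) over the 23 neuron subclusters with at least 50 cells (columns, numbered), ordered by Peg10. Colour is log2(CPM + 10) over all mice minus the median of the gene over subclusters, and the scale ends at -4 and 4. Ndn, Snrpn, Peg3 and Meg3 stay near 0, Dlk1 and Nnat vary in different columns, and Asb4 follows Peg10.

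Asb4 was highest in subcluster 20, led by Procr, Mt2, Cartpt and Nts, with 715 CPM from 272 UMIs, and in subcluster 17, led by Npw and including Nkx2-4, with 612 CPM from 181 UMIs. Both are GABAergic-like, and only the second could be tested. There Asb4 was at 481 ± 158 CPM against 69.2 ± 3.81 CPM in the other neurons of 3 mice, a log2 difference of 2.39 ± 0.319 (edgeR adjusted p = 9.05e-12, Benjamini-Hochberg over all pairs). Subcluster 1, led by Gal, Hmx3, Gsx1 and Hmx2, held more Asb4 UMIs than any other subcluster, 583 over 11 mice. Asb4 was at 193 ± 66.2 CPM there against 54.6 ± 12.4 CPM, higher in 11 of 11 mice, by 1.76 ± 0.0973 (adjusted p = 7.31e-26). Subclusters 5 (with Ebf3, Sim1 and Otp) and 16 (Cngb3, Plce1 and Pax6), both glutamatergic-like, were higher by 1 and 1.07. Asb4 had no UMI in subcluster 15 (Trp73, Nppc) in the 4 mice tested, where it was at least 5.57-fold lower.

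Peg10 was higher in subclusters 17, 6, 1 and 5, by 1.29, 1.09, 0.95 and 0.39, and in subcluster 20 it reached 471 CPM from 179 UMIs. Subcluster 6, led by the peptide gene Trh, parted the 2 genes. Peg10 was at 190 ± 81.8 CPM there against 92.3 ± 28.8 CPM in other neurons, while Asb4 was lower, at 36.8 ± 18.4 against 72.8 ± 18.7 CPM, by -0.81 ± 0.158 (adjusted p = 5.51e-05). Subcluster 16 had Peg10 at 195 CPM over all mice, but the test did not pass.

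Over the 23 subclusters the Pearson correlation of Asb4 with Peg10 was 0.86 on log2(CPM + 10). Of 3981 other genes with at least 50 CPM over neurons, none had a higher correlation with Asb4. The gene outside the members most like Asb4 was Ppp1r9a, at 0.79, with Aldh9a1 at 0.7, and the gene most like Peg10 was also Ppp1r9a, at 0.87, with Rplp1 at 0.71. Ppp1r9a, whose start is shown above, ranged from 108 CPM in hypocretin neurons to 716 CPM in subcluster 17. Sgce, which starts 0.099 kb from Peg10 on the opposite strand, correlated with Peg10 at 0.4, and Casd1 at 0.53. Dync1i1, on the other side of Asb4, correlated with Asb4 at -0.37. Without subclusters 17 and 20 the correlation of Asb4 with Peg10 was 0.78 and with Ppp1r9a 0.7, and without subclusters 0, 8 and 19, which lead with oligodendrocyte genes or come mostly from 3 mice, they were 0.88 and 0.84. In the 10 mice with at least 10 subclusters of 10 cells, the correlation of Asb4 with Peg10 within a mouse was between 0.27 and 0.77. Subclusters share libraries and differ in depth, so these values are descriptions.

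**Figure D4:**
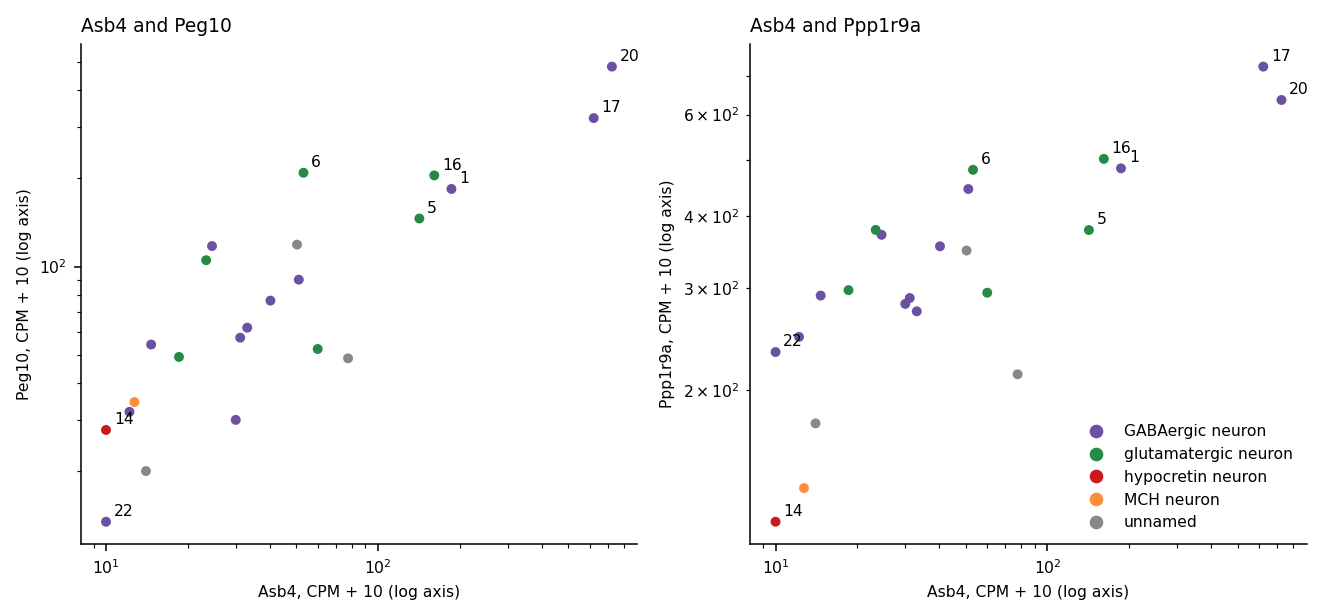
Asb4 on the x axis against Peg10 (left) and Ppp1r9a (right) on the y axis, as CPM + 10 over all mice on log axes. Each point is 1 of 23 neuron subclusters, coloured by class, and some are numbered. Subclusters 17 and 20 are high in all 3 genes, and hypocretin neurons, subcluster 14, are low in all 3.

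Dlk1 and Meg3 lie 77.7 kb apart and are expressed from different parental copies. Over subclusters they did not move together, with a correlation of -0.02. The noncoding RNAs Rian and Mirg of the same cluster correlated with Meg3 at 0.52 and 0.6 and with Dlk1 at 0.21 and 0.1, while Rtl1, at 6.82 CPM over neurons, correlated with Dlk1 at 0.58 and with Meg3 at -0.27. Dlk1 was highest in hypocretin neurons, in subcluster 20, at 1154 CPM, and in subclusters 17 and 1. In subcluster 1 it was at 941 ± 166 against 366 ± 86.6 CPM, by 1.37 ± 0.0863 (adjusted p = 1.89e-07). It was lowest in subcluster 13, led by Tac2, at 9.87 ± 7.9 against 437 ± 132 CPM, by -5.32 ± 0.259, and in subcluster 2, led by Tcf7l2, at 25.1 ± 23.2 against 484 ± 109 CPM, by -4.41 ± 0.196. Both differences passed. The genes most like Dlk1 were Gal at 0.78, Dgkk at 0.77 and Gabrq at 0.75.

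Nnat took another order. Besides hypocretin neurons it was higher in subclusters 15, 5 and 16, by 1.12, 0.64 and 0.4, and it was lower in subcluster 1, at 124 ± 47.8 against 534 ± 108 CPM, by -2 ± 0.14 (adjusted p = 1.73e-06). In subcluster 20, where Asb4 and Peg10 peaked, Nnat was at 28.9 CPM from 11 UMIs. Its correlations were -0.41 with Asb4, -0.29 with Peg10 and 0.27 with Blcap. The genes most like Nnat were Pdzd11 at 0.63, Mapre1 at 0.61 and Cbln1 at 0.6.

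Among the 4 members that varied little, Ndn was highest in subcluster 11 (Syt2, Kcna1), at 2081 ± 838 against 1174 ± 417 CPM, by 0.59 ± 0.15 (adjusted p = 0.00188). In that subcluster Snrpn, Peg3 and Meg3 were lower, by -1.22, -1.02 and -0.52, all 3 past the threshold. Ndn was also higher in subclusters 13 and 1, by 0.37 and 0.23. Ndn and Snrpn correlated at 0.11 over subclusters, Ndn and Meg3 at -0.63, and Snrpn and Peg3 at 0.6. Peg3 and its neighbour Usp29 correlated at 0.6. The gene most like Snrpn was Snap47 at 0.94, the gene most like Ndn was Reep2 at 0.86, the one most like Peg3 was Gpbp1 at 0.84 and the one most like Meg3 was Pcmtd2 at 0.83. Magel2 passed in subcluster 17, at 111 ± 78.3 against 15.1 ± 2.79 CPM, from 11 UMIs (adjusted p = 0.0144).

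The study compared a high fat diet with control chow, and no member passed in any class. In all neurons, Ndn ran from 733 to 1407 CPM in 7 control mice (median 979) and from 718 to 1919 CPM in 7 high fat diet mice (median 1069). Nnat ran from 406 to 1275 CPM (median 529) in control mice and from 247 to 630 CPM (median 472.5) in high fat diet mice. The highest control value was that of replicate 7, in which 5 of 50 neurons were hypocretin-like. Dlk1 ran from 142 to 569 CPM (median 409) and from 255 to 608 CPM (median 406.5). The ranges of the diets overlapped for all 3 genes. High fat diet replicate 7 had 13 neurons, of which 4 were GABAergic-like and 0 glutamatergic-like. It is in the values of all neurons but not in those of the GABAergic or glutamatergic class.

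Asb4 ran from 0 to 96.7 CPM (median 73.2) in control mice and from 33.5 to 124 CPM (median 73.5) in high fat diet mice, and Peg10 from 29.7 to 144.5 CPM (median 100.7) and 49 to 139 CPM (median 71.6). Peg3 ran from 1110 to 1891 CPM (median 1526) and 1460 to 2093 CPM (median 1590). Snrpn and Meg3 differed least between mice, by 744.5 to 1029 and 717 to 994 CPM for Snrpn and 5022 to 7178 and 4996 to 7398 CPM for Meg3. These ranges overlapped as well.

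With the pool as a covariate, 0 of 10398 genes passed in all neurons (0%), 0 of 9537 in GABAergic neurons and 0 of 8548 in glutamatergic neurons, while 134, 176 and 138 had an unadjusted p under 0.05 (edgeR). DESeq2 called 0, 1 and 0 genes, none of them a member. In all neurons the log2 difference of high fat diet over control was 0.21 ± 0.232 for Ndn (95% interval -0.24 to 0.66), -0.41 ± 0.275 for Nnat (-0.95 to 0.13), -0.24 ± 0.213 for Magel2 and -0.21 ± 0.285 for Peg10 (-0.77 to 0.35). It was closer to 0 for Peg3, Snrpn, Meg3, Dlk1 and Asb4, between -0.08 and 0.07. The intervals for Snrpn, Peg3 and Meg3 lay within -0.32 and 0.32, and that for Asb4 ran from -0.69 to 0.65. In oligodendrocytes, astrocytes, OPCs, microglia and endothelial cells 6, 3, 3, 1 and 1 members could be tested and none passed, nor did any of 6066, 687, 1298, 523 and 1159 genes, of which 108, 26, 50, 15 and 104 had an unadjusted p under 0.05 (edgeR), and DESeq2 called none.

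Among the members and classes tested for diet, the smallest unadjusted p was that of Ndn in GABAergic neurons, with a log2 difference of 0.44 ± 0.229 (95% interval -0.01 to 0.89, edgeR unadjusted p = 0.0765, adjusted p = 1). It ran from 738 to 1491 CPM (median 938) in 7 control mice and from 820 to 2081 CPM (median 1164) in 6 high fat diet mice. High fat diet replicates 2 and 3 and control replicate 6 were the 3 highest. Without high fat diet replicate 2 the difference was 0.23, and without replicate 3 it was 0.28. In pool 1 alone it was 0.64 and in pool 2 alone 0.22. In glutamatergic neurons it was 0.19 ± 0.199. The difference between the 2 classes was -0.28 ± 0.0689 for glutamatergic minus GABAergic neurons (edgeR unadjusted p = 0.00011, adjusted p = 0.253 over 9241 genes, of which 0.0108% passed, 1 gene that is not a member). The adjusted p of that difference was 0.0244 with cells of at least 1000 UMIs and 0.0285 without control replicate 7. A minimum of 20 cells per mouse removed that same mouse and no other, and so gave the same fit. DESeq2 gave 1.

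Ndn was above 0 in 12 of 12 subclusters tested for diet, by 0.27 to 0.95, with a median of 0.56 and an unadjusted p under 0.05 in 5. Control replicate 6, the control mouse highest in Ndn in GABAergic and glutamatergic neurons, had at least 10 cells only in subcluster 0 of these. The tests of the other subclusters therefore lacked this mouse. The subclusters come from overlapping sets of mice, and none passed over the 37478 pairs, of which 1088 had an unadjusted p under 0.05 (edgeR, adjusted p = 1). DESeq2 called none. Peg3 was above 0 in 8 of 12 subclusters and Snrpn in 7 of 12, with medians of 0.04 and 0.01.

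Mice of the same diet differed in Ndn, at 1027 ± 219 CPM (SD) in the neurons of 7 control mice and 1180 ± 467 CPM in 7 high fat diet mice. With both diets together, its coefficient of variation over 13 mice with at least 50 neurons was 31.4%. This was larger than that of all but 48 of 1062 genes of at least 200 CPM, whose median was 15.5%. Nnat varied by 42.4% (1.32% of those genes varied more) and Dlk1 by 29.7% (6.12%), while Snrpn, Meg3 and Peg3 varied by 12%, 12.7% and 14.8%. Without control replicate 7, a library with 50 neurons, Nnat varied by 20.9% and Dlk1 by 21.9%, and without high fat diet replicate 2 Ndn varied by 26%. The mix of neuron types differed between mice, and its part in these spreads was not tested. In control replicate 7, 5 of the 50 neurons were hypocretin-like. The Ndn level of GABAergic neurons went with that of glutamatergic neurons of the same mouse, with Pearson's r = 0.9 on log2(CPM + 10) (permutation p = 7e-05, two-sided, 0.00063 adjusted over 9 members) and Spearman's rho = 0.77 (permutation p = 0.00281, adjusted 0.0104) over 13 mice. Without the 2 mice farthest from the median r was 0.77. Within pool 1 it was 0.88 over 7 mice and within pool 2 0.92 over 6. Within control mice r was 0.83 and within high fat diet mice 0.96. Over the 10 mice other than the 3 highest r was 0.55.

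The same relation for Dlk1 gave r = 0.89 (permutation p = 0.001, adjusted 0.0045) and rho = 0.76 (p = 0.00348, adjusted 0.0104), with 0.61 without the 2 farthest mice, 0.88 in pool 1 and 0.99 in pool 2. For Snrpn it gave r = 0.76 (permutation p = 0.00378, adjusted 0.0085) and rho = 0.71 (p = 0.00745, adjusted 0.0168), with 0.86 without the 2 farthest, 0.53 in pool 1 and 0.94 in pool 2. For Nnat it gave r = 0.19 (permutation p = 0.542, adjusted 0.542) and rho = 0.05 (p = 0.878, adjusted 0.878). For Peg3 r was 0.78 (permutation p = 0.0055, adjusted 0.0099) and rho 0.59 (p = 0.035, adjusted 0.0525), and r fell to 0.12 without the 2 farthest mice. It was 0.44 in pool 1, 0.98 in pool 2, 0.7 within control mice and 0.97 within high fat diet mice. Each pool and each diet held 1 of the 2 farthest mice, so the relation over 13 mice depends on them. For Asb4 r was 0.89 (permutation p = 0.00171, adjusted 0.00513) and rho 0.48 (p = 0.0974, adjusted 0.125), with 0.46 without the 2 farthest mice. For Peg10 r was 0.62 (permutation p = 0.0255, adjusted 0.0383) and rho 0.61 (p = 0.0306, adjusted 0.0525), with 0.39 without them. For Meg3 r was 0.48 (permutation p = 0.0995, adjusted 0.115) and rho 0.77 (p = 0.00315, adjusted 0.0104), with r at 0.91 in pool 1 and 0.2 in pool 2. For Magel2 r was -0.47 (permutation p = 0.103, adjusted 0.115) and rho -0.18 (p = 0.555, adjusted 0.625). Both classes of a mouse come from 1 library, so differences between libraries and between animals cannot be told apart.

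**Figure D5:**
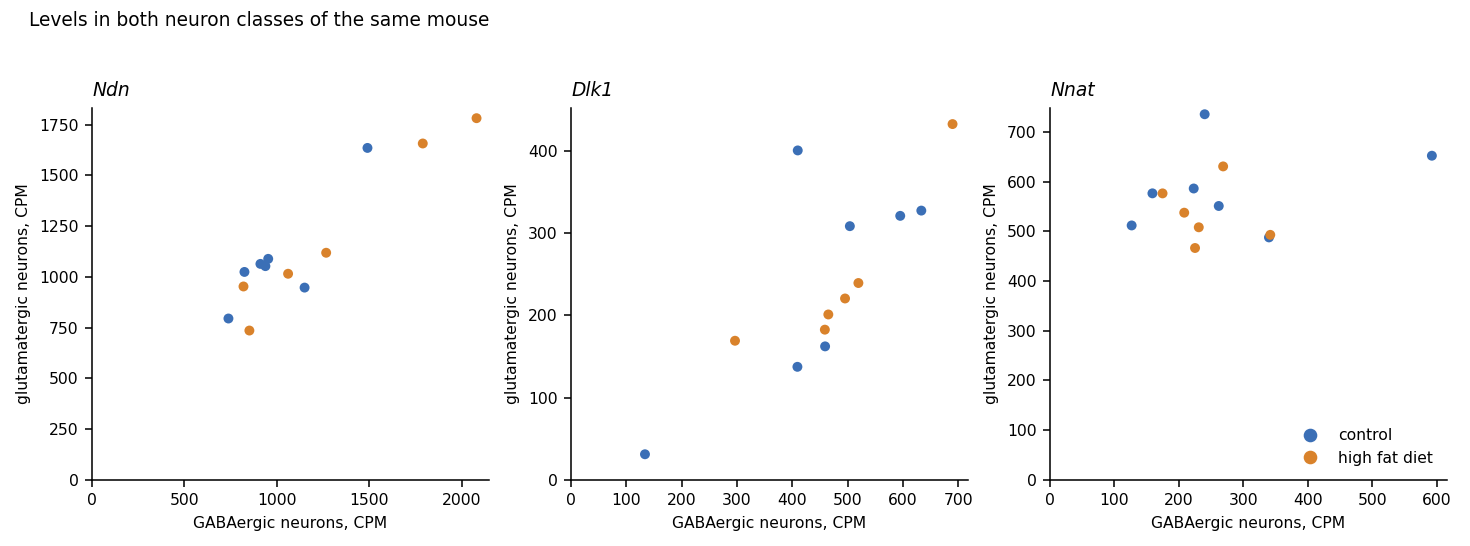
Level of Ndn, Dlk1 and Nnat in CPM in GABAergic neurons (x axis) and glutamatergic neurons (y axis) of the same mouse. Each point is 1 of 13 mice with at least 10 cells of both classes, coloured by diet. For Ndn, 3 mice lie far up in both classes, of which 2 had the high fat diet, and for Nnat the levels of the classes do not go together.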

How the data were processed

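The authors deposited raw UMI counts, 1 table of genes by barcodes for each of 14 mice. The submitters' processing notes name the mm10 genome and the tools STAR 2.4.2a, Picard 2.2.4 and bcl2fastq 2.18.0.12. The counting settings and the annotation were not given in the sources used here. Genes that overlap, as Snrpn with Snurf and Nnat with Blcap, may share reads.

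Barcodes were kept from 500 UMIs and 300 genes upward, with mitochondrial UMIs of no more than 20%, and doublets called by Scrublet in libraries of at least 300 cells were removed. Cells were clustered with scanpy 1.11.5 and leidenalg 0.10.2 on 2000 variable genes and 30 components, and named from markers. Counts were summed per mouse and class (at least 10 cells) and tested with edgeR 4.0.16 (quasi-likelihood, TMM, low counts filtered), with the mouse as a block between classes and the pool as a covariate between diets. Adjusted p-values are Benjamini-Hochberg over all genes, at a threshold of 0.05. DESeq2 1.42.0, other filters, pools and left-out mice were alternatives. The fits were tested on simulated data. Blocks in class comparisons come from cells of the same mouse. Permutation tests used 100000 permutations. Genes most alike were the 3 highest Pearson correlations among genes of at least 50 CPM over neurons (some genes are not reported here), and the other imprinted genes named were the 4 that differed most among those that passed. Members, gene lists and tests were chosen with earlier results of these data known. Nothing in the labels says more than that each library is 1 mouse.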

Additional observations from a re-analysis of the deposited data

Results flagged for a closer look

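A mouse stood far from the others of its diet in 8 of 56 groups of mice examined, by the gap to its nearest neighbour relative to the range of the group. Chance gives this in about 1 in 20 groups.

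Peg3 in high fat diet replicate 1 was at 2093 CPM in all neurons, against 1460 to 1662 CPM in the other mice of that diet. It was at 2091 CPM in GABAergic neurons, against 1499 to 1687 CPM, and at 2143 CPM in glutamatergic neurons, against 1558 to 1741 CPM. This mouse is 1 of the 3 that gave most cells of subcluster 8.

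Control replicate 7, a library with few cells, 50 of them neurons, had Nnat at 1275 CPM in neurons, against 406 to 667 CPM in the other control mice, and at 2698 CPM in 15 astrocytes, against 1543 to 1946 CPM. Of its 50 neurons 5 were hypocretin-like, against 138 of 6192 over all mice, and Nnat was at 3087 CPM over all hypocretin neurons. The part of the mix of neuron types in its neuron level was not tested. Its Magel2 in GABAergic neurons was 40.7 CPM, from 7 UMIs in 13 cells, against 9.74 to 21.8 CPM.

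Ndn in the glutamatergic neurons of control replicate 6 was at 1636 CPM, from 21 cells, against 795 to 1089 CPM. Dlk1 in the glutamatergic neurons of high fat diet replicate 2 was at 432 CPM, against 169 to 239 CPM.

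Barcodes under 500 UMIs, which no comparison used, also held UMIs of all 9 members. Summed over all mice, their levels were 528 CPM for Ndn, 16 CPM for Magel2, 425 CPM for Snrpn, 908 CPM for Peg3, 4757 CPM for Meg3, 225 CPM for Dlk1, 620 CPM for Nnat, 29.7 CPM for Asb4 and 58.7 CPM for Peg10.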

How the results depend on the processing

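No result changed direction in a way that passed the threshold under any alternative run. Between GABAergic and glutamatergic neurons 4 members passed, and 2 did so with no replicate block for the mouse and in pool 1 alone. Over subclusters 81 pairs of a member and a subcluster passed, and 48 did so with at least 20 cells per mouse and also in pool 2 alone. For diet, 1 member passed in endothelial cells and 1 in subclusters (Ndn in subcluster 1, adjusted p = 0.0247) with no filter on low counts, where none passed otherwise. For the difference of diet effects between neuron classes, 1 member, Ndn, passed with cells of at least 1000 UMIs and without control replicate 7, which is also the fit with at least 20 cells per mouse, so that leaving out 1 mouse gave 0 to 1. No paired analysis was possible because replicate numbers do not link mice of the 2 diets. In the class comparisons, 1421 results for members stayed on their side of the threshold, 28 lost it and 2 gained it; the cause was not tested. Over all genes, the calls between GABAergic and glutamatergic neurons went from 826 to between 286 and 1096, those over subclusters from 13511 to between 6284 and 19732, those against astrocytes from 3243 to between 2002 and 8565, those against microglia from 2918 to between 2567 and 8621, those against mural cells from 2930 to between 1013 and 4041, those against endothelial cells from 3266 to between 2361 and 8455, those against oligodendrocytes from 7306 to between 6079 and 11278, those against OPCs from 4827 to between 3936 and 7442, and those of hypocretin neurons from 2320 to between 1157 and 2792. Without control replicate 7 the calls against astrocytes were 5000 and those against microglia 4835. The calls for diet went from 0 to at most 42 in all neurons, 8 in GABAergic neurons, 1 in glutamatergic neurons, 2 in oligodendrocytes, 3 in astrocytes, 1 in OPCs, 9 in microglia, 18 in endothelial cells and 32 over subclusters, and those for the difference of diet effects from 1 to between 0 and 4. The coefficient of variation of Nnat over mice, 42.4%, was 20.9% without control replicate 7, an alternative chosen after seeing the data. Keeping doublets, or clustering with the imprinted genes, was not run for subclusters, whose numbers then differ. Depth limits Magel2, Asb4 and Peg10 outside neurons, and the 3 libraries with few cells.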
